A study of Mus musculus with 14 samples.

Results

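The genes described here are 6 genes of the choroid plexus epithelium (Ttr, Kl, Folr1, Aqp1, Clic6 and Otx2) and 4 genes of pituitary hormone subunits (Prl, Gh, Cga and Lhb), followed on each array of mouse brain. They were taken by symbol: every probe set annotated to 1 of these symbols alone was kept. That gave 18 of the 45037 probe sets other than controls on the array, 11 for the choroid plexus and 7 for the pituitary. Ttr and Gh had 4 probe sets each, Kl and Clic6 had 2 each, and the other genes had 1.

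RNA was measured in 3 brains of PWS-IC del mice, which lack the imprinting center of the Prader-Willi domain, and in 4 brains of wild-type littermates. It was also measured in the vastus lateralis, part of the quadriceps muscle, of 3 PWS-IC del and 4 wild-type mice. All were F1 hybrids of FVB and B6, and the littermates were age-matched. Age, sex and the parent of origin of the deletion are not stated in the labels. Affymetrix Mouse Genome 430 2.0 arrays were used, 1 per sample, on which a probe set reports the brightness of the transcripts that bind it. The titles call the samples biological replicas. Levels are log2(intensity + 16), a scale with a floor of 4, so that differences between dim values are understated. A difference is the PWS-IC del value less the wild-type value, or the brain value less the muscle value, on that log2 scale.

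The choroid plexus is a sheet of epithelium inside the brain ventricles that makes cerebrospinal fluid. It makes up a small part of the brain but expresses a few transcripts very strongly, so a brain extract reports on it through those transcripts. The anterior pituitary lies in a pocket of the skull below the hypothalamus and is not part of the brain. Its hormone genes are each expressed strongly in a specialised endocrine cell: Prl in lactotrophs, Gh in somatotrophs, Cga in gonadotrophs and thyrotrophs, and Lhb in gonadotrophs. In an extract of whole tissue, fewer cells of a type and less RNA per cell cannot be told apart.

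The promoters are shown for a member of each set, because the member's level varied widely among the brains and its window holds a motif of a factor tied to that tissue. They come from RefSeq (GRCm38.p6), run 5′ to 3′ on the gene's strand, and cover 250 bases before and 50 bases after the annotated start. RefSeq's table held such windows for 6 of the 10 genes. In the Prl window (chr13:27057320-27057619, plus strand) the capitals mark ATGNATA on either strand, where N is any base, the half-site of POU1F1 (Pit-1), the factor that drives prolactin and growth hormone genes in the pituitary. In a window of Otx2 (chr14:48665060-48665359, minus strand) the capitals mark TAATCC on either strand, the core bound by OTX and CRX homeodomain proteins.
Prl: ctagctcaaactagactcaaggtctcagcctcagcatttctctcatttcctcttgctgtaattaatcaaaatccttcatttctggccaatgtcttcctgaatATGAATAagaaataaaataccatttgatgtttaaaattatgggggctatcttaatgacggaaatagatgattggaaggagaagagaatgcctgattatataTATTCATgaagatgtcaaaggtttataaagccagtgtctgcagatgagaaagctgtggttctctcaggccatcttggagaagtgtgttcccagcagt
Otx2: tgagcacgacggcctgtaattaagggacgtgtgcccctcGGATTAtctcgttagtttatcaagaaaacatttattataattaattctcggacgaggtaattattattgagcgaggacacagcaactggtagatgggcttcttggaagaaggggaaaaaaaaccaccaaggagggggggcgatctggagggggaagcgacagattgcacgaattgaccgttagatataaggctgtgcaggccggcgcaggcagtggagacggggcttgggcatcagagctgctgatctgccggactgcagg
The Prl window held ATGNATA 2 times, with the first base of the match 148 bases before the start on the plus strand and 47 bases before it on the minus strand. It was also present once each in 2 of the 4 windows of Otx2, a choroid plexus member, and in 0 of the windows of Cga, Lhb, Kl and Aqp1. This motif was present in 8.84% of all 32851 promoter windows. TAATCC was present in 7.06% of all windows, in 1 of the 4 windows of Otx2, and in neither the Kl nor the Aqp1 window. The TATA box TATAAA, searched in the same way, was present in 13.6% of all windows, in those of Prl, Cga and Lhb, and in 1 of the 4 of Otx2, there 192 bases before the start. A match describes the letters in the window and does not show that a factor binds there.

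The labels were checked on the imprinted domain and on marker genes. Snrpn, a gene of the domain, lay between 5.03 and 6.48 in PWS-IC del brains, against 10.29 to 10.64 in wild-type brains, and between 6.37 and 6.97 in PWS-IC del muscle, against 7.07 to 7.16 in wild-type muscle. Snap25, a neuronal gene, lay between 13.66 and 13.83 on all 7 brain arrays. Some brain arrays stood apart from others of their own group. A score, the mean over a list's genes of each array's deviation from the brain mean, was 2.19 and 1.61 for skeletal muscle genes in wild-type brains 1 and 3 and negative on the other 5 arrays. For cerebellum genes it was 2.68 in PWS-IC del brain 2, 0.57 in wild-type brain 3 and negative on the other 5 arrays. Because of the skeletal muscle scores, the genotype differences are also given below without wild-type brains 1 and 3.

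Among choroid plexus genes, 9 of 11 probe sets had wild-type brains 1 and 2 below all 5 other brains, against 17.0% of all probe sets. For these 9, wild-type brains 3 and 4 lay within or above the range of the PWS-IC del brains, so the genotypes overlapped. No choroid plexus probe set passed the genotype test in brain.

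Ttr encodes transthyretin, the carrier of thyroxine and of retinol-binding protein that the choroid plexus secretes into the fluid. It lies on chromosome 18. Its probe set 1459737_s_at, the brightest of the 4 on average, had 13.00, 13.43 and 13.68 in PWS-IC del brains 1, 2 and 3, against 11.84, 11.91, 13.70 and 13.74 in wild-type brains 1, 2, 3 and 4. The muscle arrays had 5.59 to 6.91. Wild-type brains 1 and 2 were the low pair, wild-type brains 3 and 4 were slightly above every PWS-IC del brain, and no brain came near the muscle range. The difference between genotypes was 0.57 ± 0.51 (SE; 3 against 4 arrays, limma adjusted p = 0.678). The means were 13.37 ± 0.35 for the 3 PWS-IC del brains and 12.80 ± 1.07 for the 4 wild-type brains (SD).

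The other 3 probe sets of Ttr ranked the brains alike at the low end. Probe set 1451580_a_at had 12.19, 13.10 and 13.63 in PWS-IC del brains, against 10.48, 10.73, 13.37 and 13.59 in wild-type brains. As for 1459737_s_at, wild-type brains 1 and 2 were the low pair. Probe set 1455913_x_at had 12.70, 13.32 and 13.61 in PWS-IC del brains and 10.90, 11.00, 13.63 and 13.71 in wild-type brains. Probe set 1454608_x_at had 13.25, 13.74 and 13.87 in PWS-IC del brains and 11.77, 11.80, 13.86 and 13.91 in wild-type brains. Over the 4 probe sets the genotype difference ran from 0.57 to 0.93, with limma adjusted p between 0.649 and 0.678. In PWS-IC del brain 3 and in wild-type brain 4 only 1 probe set on the array was brighter than 1454608_x_at, and whether values so near the top of the range were compressed was not tested.

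Kl encodes klotho, a membrane protein that serves as a co-receptor for the hormone FGF23 and that is shed into the cerebrospinal fluid. It lies on chromosome 5. Probe set 1423400_at had 7.89, 8.31 and 9.69 in PWS-IC del brains, against 6.59, 6.85, 9.15 and 9.89 in wild-type brains. Muscle had 5.16 to 5.57. All 7 brains were above muscle, and the genotypes overlapped: the wild-type group held both the lowest pair and the highest brain. The difference was 0.51 ± 0.83 (limma adjusted p = 0.806), and it was -0.0018 without wild-type brain 1 and -0.02 without PWS-IC del brain 3. The second Kl probe set, 1451892_at, stayed between 4.58 and 5.23 in brain, against 4.59 to 4.98 in muscle, and so showed neither the brain pattern nor a separation of the tissues.

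Folr1 encodes the folate receptor that carries folate across the choroid plexus into the fluid. Its gene is on chromosome 7. Probe set 1450995_at had 7.08, 8.03 and 9.67 in PWS-IC del brains, against 5.79, 6.51, 8.23 and 9.60 in wild-type brains. This was the widest spread among the choroid plexus probe sets, 3.88 log2 units, and only 0.182% of all probe sets on the array had a wider spread over the 7 brains. Muscle, at 7.25 to 7.85, lay inside that spread: 4 brains were above the highest muscle array and 3 were below the lowest. The genotype difference was 0.73 ± 0.93 (limma adjusted p = 0.754).

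Otx2, on chromosome 14, encodes the homeodomain transcription factor that is required for the choroid plexus to form. Probe set 1425926_a_at had 7.62, 8.19 and 7.65 in PWS-IC del brains, against 5.60, 5.57, 8.09 and 8.59 in wild-type brains. The wild-type group split into a low pair and a high pair, and the 3 PWS-IC del brains lay above the low pair and at or below the high pair, apart from PWS-IC del brain 2, which was just above wild-type brain 3. Muscle had 6.47 to 7.06, with 5 brains above it and 2 below it. The genotype difference was 0.86 ± 0.75 (limma adjusted p = 0.672).

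Clic6, on chromosome 16, encodes a chloride intracellular channel protein. Its probe set 1454866_s_at had 8.76, 8.52 and 9.70 in PWS-IC del brains, against 7.79, 7.62, 9.06 and 9.85 in wild-type brains. Muscle had 5.0 to 5.62, far below every brain. The second probe set, 1434165_at, gave 8.43, 8.13 and 9.14 in PWS-IC del brains and 8.0, 7.64, 8.69 and 9.24 in wild-type brains, over a muscle range of 7.26 to 7.59. Both had the same low pair of wild-type brains and the same highest brains, wild-type brain 4 and PWS-IC del brain 3. The genotype differences were 0.42 ± 0.55 for 1454866_s_at and 0.18 ± 0.39 for 1434165_at (limma adjusted p = 0.760 and 0.859). That of 1434165_at was -0.07 without wild-type brain 2 and -0.11 without PWS-IC del brain 3.

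Aqp1, on chromosome 6, encodes the water channel of the apical membrane of the choroid plexus, and it is also known in the endothelium of muscle capillaries. It broke the pattern. Probe set 1416203_at had 5.83, 6.38 and 7.85 in PWS-IC del brains, against 7.02, 6.97, 7.02 and 7.85 in wild-type brains. The lowest brains were PWS-IC del brains 1 and 2, while the highest were wild-type brain 4 and PWS-IC del brain 3, as for Folr1, Kl and Clic6. The genotype difference in brain was -0.53 ± 0.44 (limma adjusted p = 0.667). Muscle had 11.15 to 12.23, above all 7 brains.

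**Figure D1:**
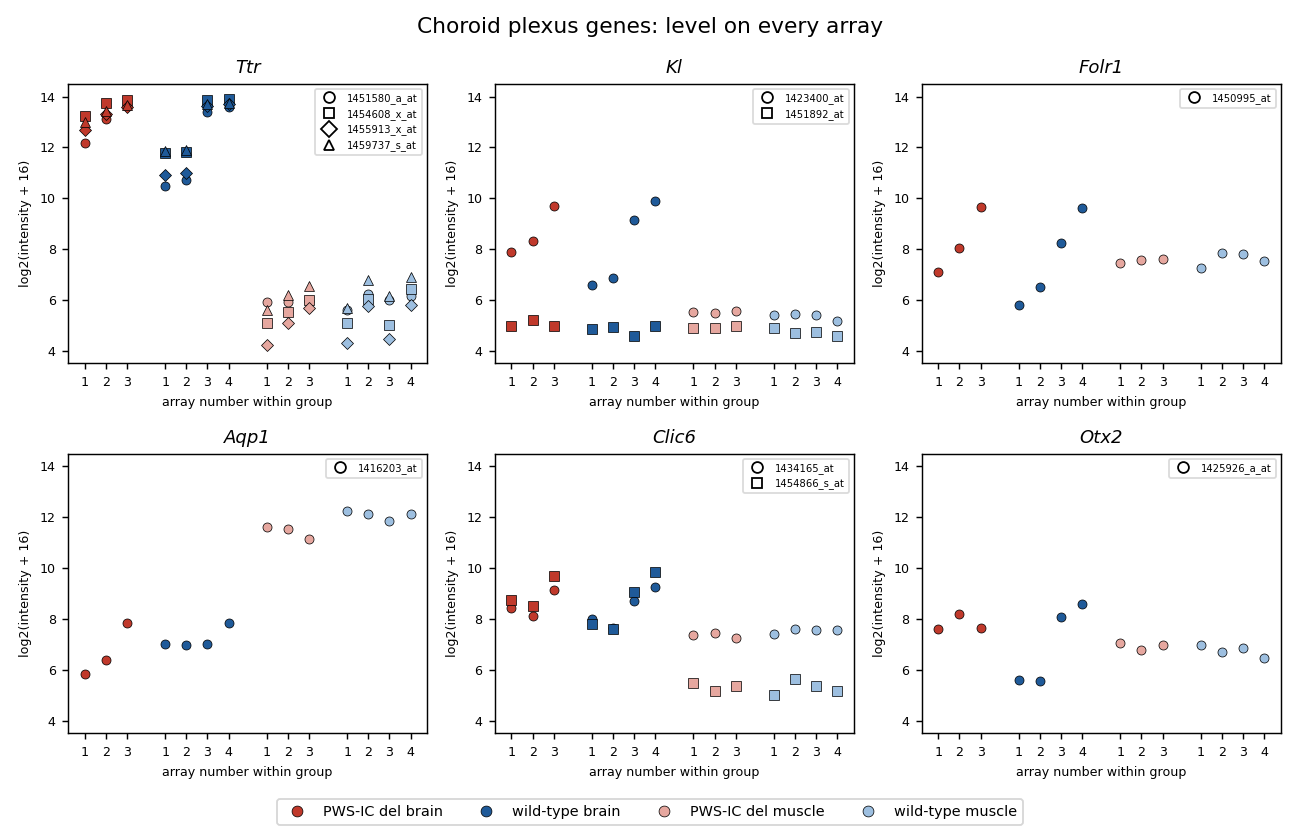
Level of each choroid plexus gene, as log2(intensity + 16), on every array; each point is 1 array and each marker shape 1 probe set, with PWS-IC del arrays left of wild-type arrays in each tissue. For Ttr, Kl 1423400_at, Folr1, Clic6 and Otx2 the points of wild-type brains 1 and 2 lie below those of the other 5 brains, and for Aqp1 all brains lie below muscle.

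The genes whose pattern over the 7 brains was most like that of Ttr were sought among the 1826 other genes with a spread of at least 1 log2 unit in brain. Likeness was the root mean square difference between the deviations of 2 genes from their brain means. The 5 nearest to Ttr 1459737_s_at, each gene by its brightest probe set, were Rdh5 at 0.18, Col8a1 at 0.19, Ecrg4 at 0.21, Lbp at 0.29 and Col8a2 at 0.30. All 5 were on the list of 37 further choroid plexus genes used here, of which 20 were among the 1826 genes. That list was chosen with earlier results of these data known, so the overlap is a description and not a test. Rdh5, a retinol dehydrogenase, had 7.76, 8.39 and 8.29 in PWS-IC del brains, against 6.84, 7.06, 8.34 and 8.60 in wild-type brains. Ecrg4, which encodes a secreted peptide precursor, had 7.97, 8.77 and 9.07 in PWS-IC del brains, against 6.79, 7.43, 8.83 and 9.14 in wild-type brains. Both have wild-type brains 1 and 2 lowest and wild-type brain 4 highest. Among the members themselves the distance from Ttr was 0.44 for Clic6, 0.45 for Otx2, 0.54 for Kl, 0.75 for Folr1 and 0.88 for Aqp1, each by its brightest probe set. These distances describe 7 arrays of 2 genotypes that share 1 processing, and the genes of a list are not independent of each other.

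Of the 37 further choroid plexus genes, 34 had a probe set. For 19 of the 34, wild-type brains 1 and 2 were the lowest pair, against 17.0% of all probe sets. For 1 of the 34 they were the highest pair, against 18.1% of all probe sets. Sostdc1, which encodes a secreted inhibitor of BMP and Wnt signals, had 8.20, 8.55 and 9.68 in PWS-IC del brains, against 6.18, 6.53, 8.82 and 9.81 in wild-type brains. Kcne2, a potassium channel subunit of the apical membrane, had 5.91, 7.0 and 8.59 in PWS-IC del brains, against 5.39, 4.81, 7.32 and 8.34 in wild-type brains. Like the members, both had the low wild-type pair and high values in PWS-IC del brain 3 and wild-type brain 4. Genotype differences were 0.97 ± 0.86 for Sostdc1, 0.70 ± 0.91 for Kcne2, 0.62 ± 0.37 for the tight-junction gene Cldn1 and 0.58 ± 0.48 for the collagen gene Col8a1. The list's differences were positive for 23 genes and negative for 11, with a median of 0.15, against -0.0087 over all probe sets. In limma's test 0 of the 34 passed, at a lowest adjusted p of 0.644, and 1 had an unadjusted p under 0.05.

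**Figure D2:**
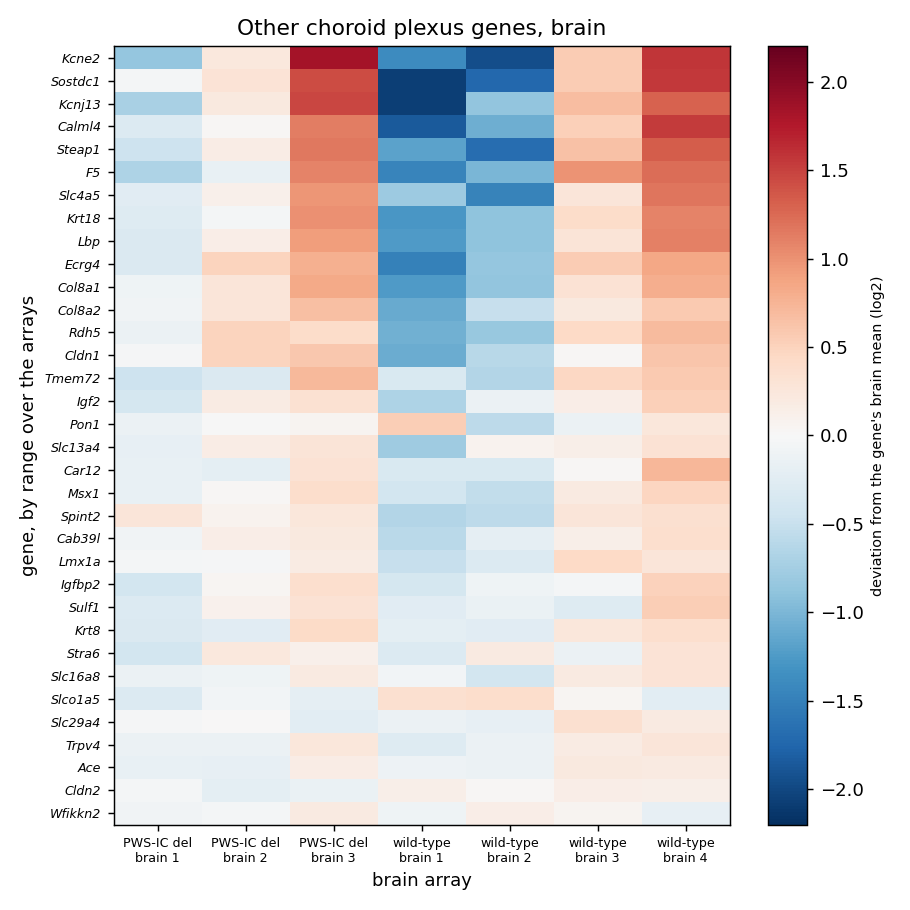
Deviation of the 34 further choroid plexus genes from their own mean over the 7 brains, in log2 units, with genes ordered by their spread and PWS-IC del brains to the left. The upper rows are blue in wild-type brains 1 and 2 and red in PWS-IC del brain 3 and wild-type brain 4, and the lower rows are pale on all arrays.

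Lists of other tissues and regions moved with the same arrays. For the 6 choroid plexus members the score was -0.36, 0.08 and 0.94 in PWS-IC del brains, against -1.20, -1.09, 0.48 and 1.15 in wild-type brains. Their summed intensity ran from 9046 to 15654 in PWS-IC del brains, against 4165 to 16566 in wild-type brains, and most of it was Ttr. Without Ttr the sum of the other 5 was 891 to 2556 in PWS-IC del brains, against 499 to 2864 in wild-type brains, with wild-type brains 1 and 2 again lowest. Ependyma genes, which mark the ciliated lining of the ventricles, scored 0.26, 0.30 and 0.03 in PWS-IC del brains, against -0.66, -0.32, 0.01 and 0.39 in wild-type brains. Of the 10 ependyma genes, 8 had the low wild-type pair, among them Dynlrb2, a dynein light chain, with 8.85, 8.83 and 8.87 in PWS-IC del brains, against 7.67, 8.08, 8.53 and 9.01 in wild-type brains. Over the whole array 17.0% of probe sets had that low pair. The summed ependyma intensity was 2264 to 2732 in PWS-IC del brains and 1327 to 2920 in wild-type brains.

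Other lists ran the opposite way. Olfactory bulb genes scored -0.20, -0.18 and -1.37 in PWS-IC del brains, against 1.42, 1.16, -0.41 and -0.42 in wild-type brains, and for 5 of its 7 genes wild-type brains 1 and 2 were the highest pair. Striatum genes scored -0.05, -1.03 and -0.01 in PWS-IC del brains, against 1.19, 0.56, -0.94 and 0.28 in wild-type brains, with the same highest pair for 6 of 8 genes. Endothelium genes had that highest pair for 6 of 8 genes. The same order held for 18.1% of all probe sets. Cdhr1, a cadherin of olfactory bulb output neurons, had 7.70, 7.39 and 6.81 in PWS-IC del brains, against 10.36, 10.11, 7.50 and 8.32 in wild-type brains. Wild-type brains 1 and 2, low in Ttr, were thus the high pair in Cdhr1. Summed over the olfactory bulb list, intensity was 799.6 to 4282 in PWS-IC del brains and 3276 to 5758 in wild-type brains. Over the striatum list it was 7138 to 12916 in PWS-IC del brains and 7453 to 27130 in wild-type brains. Genes of neurons and glia in general scored between -0.09 and 0.07 on all 7 arrays. The part of these lists in the choroid plexus levels was not tested.

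**Figure D3:**
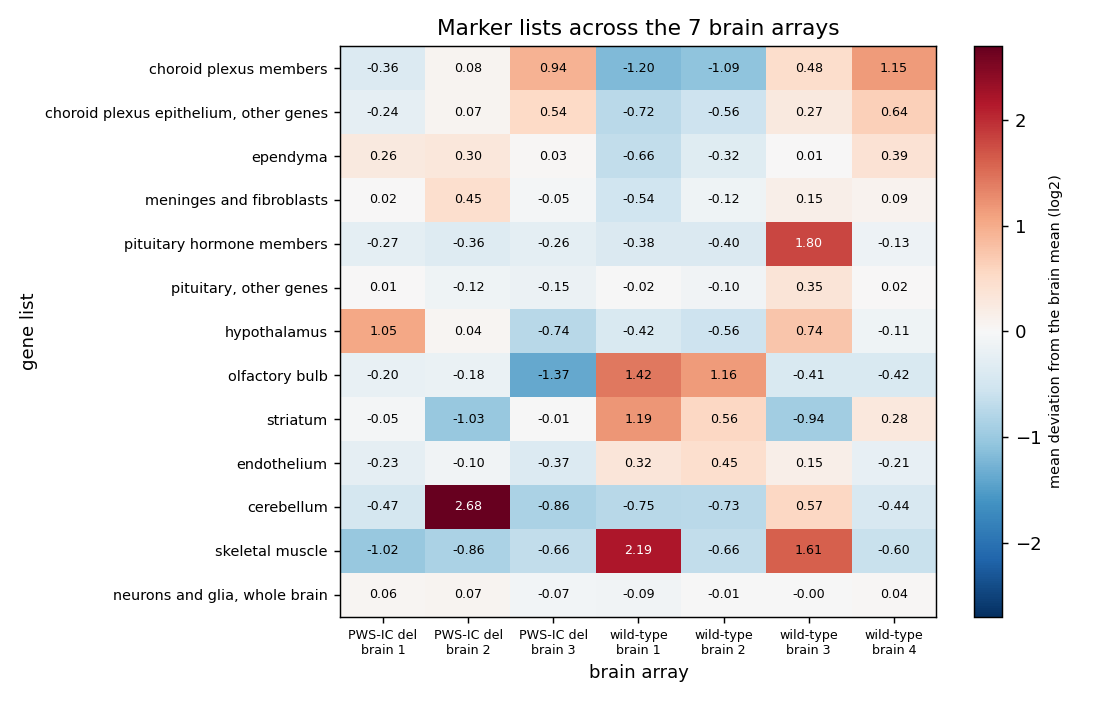
Score of 13 gene lists (rows) on the 7 brain arrays (columns), PWS-IC del brains to the left; colour and number give the mean deviation of the list's genes from their brain mean in log2 units. Choroid plexus members are lowest at -1.20 and -1.09 in wild-type brains 1 and 2, where the olfactory bulb list is highest at 1.42 and 1.16, and the pituitary hormones reach 1.80 in wild-type brain 3.

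Prl and Gh were highest in the same brain, by a wide margin, while Cga and Lhb were not high in any brain. Wild-type brain 3 was the highest brain for all 7 probe sets, an order that was not counted over all probe sets. For Lhb it had 7.32, against 7.29 in wild-type brain 2. For 5 of 7, the Prl probe set and all 4 of Gh, wild-type brain 3 stood at least 1 log2 unit above every other brain. Over the whole array 10 probe sets did so, 0.0222% of all. Wild-type brain 4 was the second highest brain for these 5 probe sets, and for all 5 it too was above every muscle array. For Prl all 7 brains were above every muscle array, and for Gh 1460310_a_at 5 were.

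Prl, on chromosome 13, encodes prolactin, the hormone of the lactotrophs, and its promoter is the first printed above. Probe set 1429287_a_at had 5.84, 5.91 and 5.92 in PWS-IC del brains, against 6.08, 6.14, 10.45 and 6.38 in wild-type brains. Muscle had 5.22 to 5.54. Wild-type brain 3 was the high array, with 33.7 times the intensity of the lowest brain. The other 3 wild-type brains were above every PWS-IC del brain too, by far less. The genotype difference was -1.38 ± 0.98 (limma adjusted p = 0.647), and without wild-type brain 3 it was -0.31.

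Gh, on chromosome 11, encodes growth hormone, the product of the somatotrophs. Its probe set 1456595_x_at, the brightest on average, had 6.08, 6.0 and 6.16 in PWS-IC del brains, against 5.66, 5.73, 9.17 and 6.78 in wild-type brains. Probe set 1460613_x_at had 6.0, 5.31 and 5.65 in PWS-IC del brains and 5.34, 5.46, 9.28 and 6.87 in wild-type brains. In both, wild-type brain 3 was highest and wild-type brain 4 second, and the other wild-type brains overlapped the PWS-IC del brains. Probe set 1437522_x_at had 4.00, 4.37 and 4.07 in PWS-IC del brains and 4.00, 4.00, 8.90 and 6.01 in wild-type brains, so that 3 of its values were at the floor and have no order among themselves, while wild-type brain 4 was a second raised array, above the muscle range of 4.00 to 4.87. Probe set 1460310_a_at had 5.66, 5.24 and 5.71 in PWS-IC del brains and 5.78, 6.26, 8.20 and 6.36 in wild-type brains. For this last probe set every wild-type brain was above every PWS-IC del brain.

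Genotype differences of the 4 Gh probe sets ran from -1.58 to -0.75, with limma adjusted p between 0.644 and 0.700. The smallest unadjusted p among all 18 member probe sets in brain was 0.0562, for 1460310_a_at, with a difference of -1.12 ± 0.50. Without wild-type brain 3 this difference was -0.60, and that of 1456595_x_at was 0.02. Prl and Gh 1460310_a_at were 2 of 18 member probe sets whose genotype groups did not overlap in brain, which was the case for 7.72% of all probe sets.

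Cga, on chromosome 4, encodes the alpha subunit shared by luteinizing hormone, follicle-stimulating hormone and thyrotropin. Probe set 1418549_at had 5.67, 5.33 and 5.61 in PWS-IC del brains, against 5.23, 4.94, 5.95 and 5.07 in wild-type brains, and 5.91 to 6.53 in muscle. Wild-type brain 3 was highest here too, but within the lower end of the muscle range. Lhb, on chromosome 7, encodes the beta subunit of luteinizing hormone. Probe set 1450795_at had 7.03, 7.02 and 6.95 in PWS-IC del brains, against 7.18, 7.29, 7.32 and 6.93 in wild-type brains, inside or just below the muscle range of 6.96 to 7.43. Neither gene stood 1 unit above the other brains in wild-type brain 3. The genotype differences were 0.24 ± 0.24 for Cga and -0.18 ± 0.13 for Lhb (limma adjusted p = 0.698 and 0.645).

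**Figure D4:**
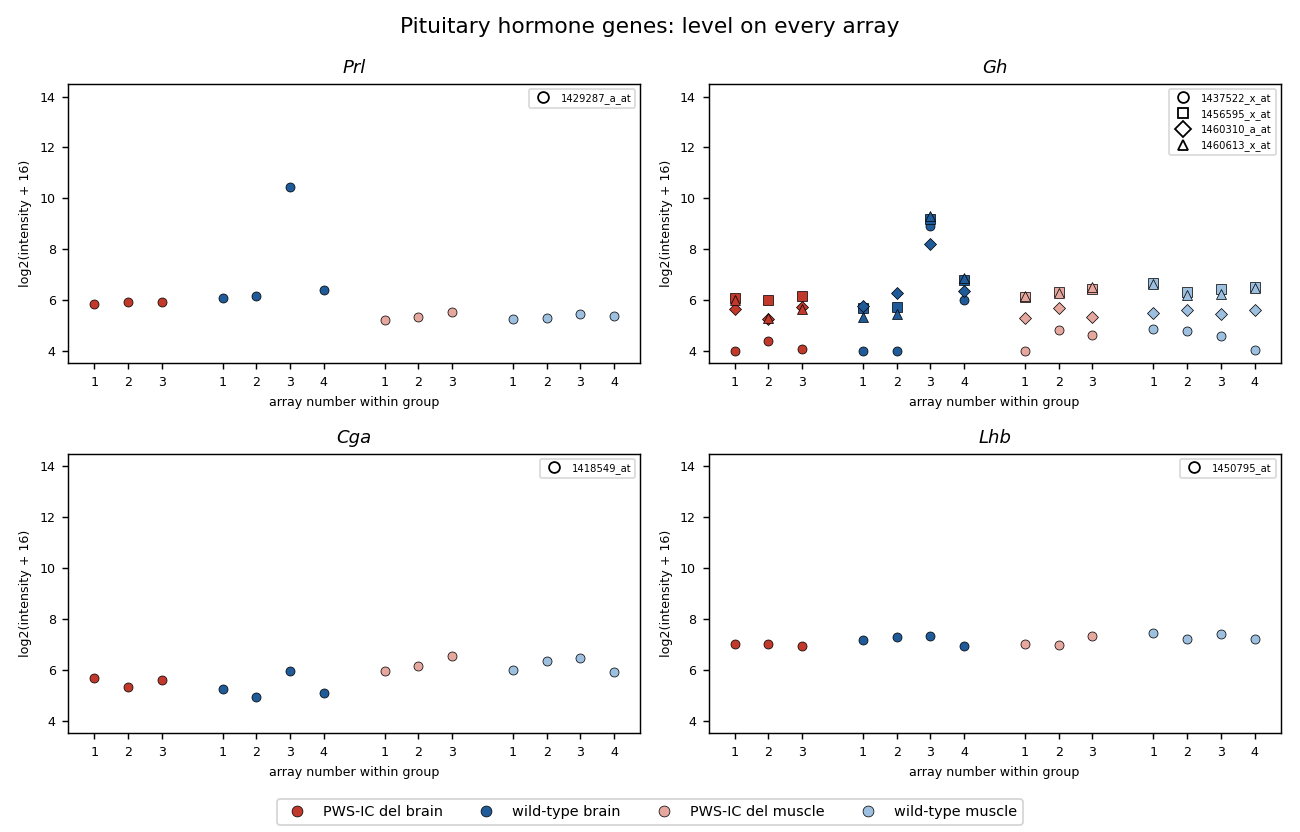
Level of each pituitary hormone gene, as log2(intensity + 16), on every array; each point is 1 array and each marker shape 1 probe set, with PWS-IC del arrays left of wild-type arrays in each tissue. Prl and all 4 Gh probe sets have their highest point in wild-type brain 3, between 8.20 and 10.45, with wild-type brain 4 next, at 6.01 for Gh 1437522_x_at, while Cga and Lhb have no high point.

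By the same measure of likeness, with each gene taken by its brightest probe set, the gene nearest to Prl over the 7 brains was Pomc, at 0.42, followed by Hcrt at 0.99, 9130015G15Rik at 1.00, A530053G22Rik at 1.13 and Plekhg1 at 1.18, while Gh, a member, stood at 0.55. Pomc encodes the precursor of corticotropin and melanocyte-stimulating hormone and is expressed in the pituitary and in neurons of the arcuate nucleus. Its probe set 1433800_a_at had 8.18, 7.57 and 7.63 in PWS-IC del brains, against 7.39, 7.72, 11.31 and 8.0 in wild-type brains. Hcrt, the hypocretin precursor of lateral hypothalamic neurons, had 8.01, 7.77 and 7.88 in PWS-IC del brains, against 7.57, 7.55, 9.45 and 7.77 in wild-type brains. In both genes wild-type brain 3 was the single high array. The 10 probe sets that stood at least 1 unit higher in that brain belonged to Prl, Gh, Pomc, Hcrt, 9130015G15Rik and Mlip, the last named after its values were seen. The Mlip probe set, 1430806_at, is not the brightest of its gene and so was not ranked, but at 0.22 it was nearer to Prl than Pomc was.

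The list of 18 further pituitary genes had 15 with a probe set, and Pomc was the only 1 of them at least 1 unit higher in wild-type brain 3 than in every other brain. Genotype differences in this list were negative for 13 genes and positive for 2, with a median of -0.14, against -0.0087 over all probe sets. For 6 of the 15, wild-type brains 1 and 2 were the highest pair, which held for 18.1% of all probe sets. In limma's test 0 of the 15 passed and 1 had an unadjusted p under 0.05. Tshb and Fshb, the beta subunits of thyrotropin and follicle-stimulating hormone, are named after their values were seen: Tshb stayed between 6.41 and 6.70 in brain and Fshb between 4.00 and 4.42. Neither was high in wild-type brain 3. Hypothalamus genes scored 1.05, 0.04 and -0.74 in PWS-IC del brains, against -0.42, -0.56, 0.74 and -0.11 in wild-type brains. Avp, the vasopressin gene of hypothalamic neurons, had 13.50, 7.69 and 7.34 in PWS-IC del brains and 7.70, 7.47, 10.31 and 7.40 in wild-type brains. Pmch, the melanin-concentrating hormone gene, had 9.04, 10.99 and 6.49 in PWS-IC del brains and 6.37, 6.11, 11.67 and 7.83 in wild-type brains. Wild-type brain 3 was thus high in Avp and Pmch as well, and PWS-IC del brain 1 was higher in Avp and not high in Prl. Sim1, a gene of the same list named after its values were seen, was also highest in wild-type brain 3, by less. It had 7.50 there and 7.25 in PWS-IC del brain 3. Oxt and Trh were not highest in wild-type brain 3. Oxt had 8.72 in wild-type brain 3 and 11.42 in PWS-IC del brain 1. Trh had 7.57 in wild-type brain 3, against 7.90, 7.85 and 8.53 in wild-type brains 1, 2 and 4. Of the 9 hypothalamus genes with a probe set, 1, Hcrt, stood at least 1 unit higher in wild-type brain 3. Wild-type brain 3 also carried skeletal muscle transcripts, as did wild-type brain 1, which had no high hormone gene. The summed intensity of the 4 hormone genes was 230 to 242 in PWS-IC del brains, against 237 to 2134 in wild-type brains. Over the skeletal muscle list it was 3982 to 8408 in PWS-IC del brains and 4451 to 13502 in wild-type brains, of which Pvalb, a gene that interneurons and Purkinje cells also express, gave 3060 to 7489 and 2583 to 3936. Without Pvalb the muscle sum was 919 to 1357 in PWS-IC del brains, against 10919 and 6683 in wild-type brains 1 and 3 and 1335 and 1194 in wild-type brains 2 and 4. Over the hypothalamus list it was 1299 to 16916 in PWS-IC del brains and 1637 to 6945 in wild-type brains, and without Avp 1152 to 5366 and 1476 to 5694. The part of these lists in the hormone levels was not tested.

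Genes that work with the members were looked at in the same brains, and 0 genes of these lists passed limma's test, at a lowest adjusted p of 0.644. Of 11 genes that handle thyroid hormone and retinol, the cargo of transthyretin, 9 had a probe set and 0 had an unadjusted p under 0.05. Their differences ran from -0.15 to 0.34, and none of the 9 had the low wild-type pair of Ttr, which 17.0% of all probe sets had. Dio2, the deiodinase that makes active thyroid hormone, had 9.25, 9.40 and 9.93 in PWS-IC del brains, against 8.94, 9.52, 9.08 and 9.23 in wild-type brains. Slco1c1, a thyroxine transporter of brain capillaries and choroid plexus, had 10.41, 10.17 and 10.71 in PWS-IC del brains, against 10.56, 10.67, 10.48 and 10.61 in wild-type brains. The genotypes overlapped in both.

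The 17 paralogs and partners of the choroid plexus members all had a probe set, with differences from -0.33 to 0.36, a median of 0.01 and 0 unadjusted p under 0.05. Of these, 5 had the low wild-type pair and 4 had wild-type brains 1 and 2 as the high pair. These orders held for 17.0% and 18.1% of all probe sets. Fgf23, the hormone that binds the klotho co-receptor, had 8.47, 8.31 and 8.48 in PWS-IC del brains, against 8.88, 8.79, 8.71 and 8.40 in wild-type brains. Otx1, the paralog of Otx2, had 6.48, 6.73 and 6.87 in PWS-IC del brains, against 5.96, 6.72, 6.12 and 6.56 in wild-type brains, and so did not split the wild-type group as Otx2 did. Clic5, a paralog of Clic6, had 6.05, 6.70 and 6.54 in PWS-IC del brains, against 6.89, 6.96, 6.75 and 6.43 in wild-type brains. Its muscle range of 10.93 to 11.13 was far above brain.

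On the side of the pituitary, 5 of 7 hypothalamic regulators had a probe set, 3 with a positive and 2 with a negative difference. Crh, the releasing hormone for corticotropin, had 9.46, 9.20 and 9.31 in PWS-IC del brains, against 8.96, 9.27, 8.77 and 8.64 in wild-type brains. Ghrh, the releasing hormone for growth hormone, had 6.54, 6.41 and 6.39 in PWS-IC del brains, against 6.26, 6.13, 6.20 and 6.43 in wild-type brains. Neither was high in wild-type brain 3. Hormone receptors and growth hormone targets had 6 of 8 genes with a probe set, 1 with a positive and 5 with a negative difference, between -0.35 and 0.09. Ghr, the growth hormone receptor, had 9.18, 8.94 and 8.68 in PWS-IC del brains, against 8.76, 8.67, 8.91 and 9.03 in wild-type brains. Igf1, a target of growth hormone, had 8.73, 8.86 and 8.82 in PWS-IC del brains, against 8.81, 9.15, 8.72 and 8.99 in wild-type brains. The receptor and the target thus stayed level in wild-type brain 3, where Gh was high. In each of these lists, 1 gene had an unadjusted p under 0.05.

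Of the lists for other tissues, meninges and fibroblast genes had the low wild-type pair for 4 of 10 genes, against 17.0% of all probe sets. Their score was -0.54 in wild-type brain 1 and 0.45 in PWS-IC del brain 2. Pineal and retina genes scored between -0.12 and 0.27 over the 7 brains and red blood cell genes between -0.49 and 0.23.

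The genotype comparison asks whether loss of the imprinting center changed these genes in brain or muscle. In brain, 0 of 18 member probe sets passed limma's test at an adjusted p under 0.05, and 0 had an unadjusted p under 0.05. Over all probe sets 0.0622% passed, all of them lower in PWS-IC del, and 6.39% had an unadjusted p under 0.05. The differences of the choroid plexus probe sets ran from -0.53 to 0.93, positive for 10 of 11, with a median of 0.57. Those of the hormone probe sets ran from -1.58 to 0.24, negative for 6 of 7, with a median of -1.09. Without wild-type brains 1 and 3, which carried skeletal muscle transcripts, 0 of 18 passed and every member difference kept its sign, at 0.54 for Ttr 1459737_s_at, 0.74 for Otx2 and -0.38 for Prl, although those of Kl 1423400_at and Folr1 were smaller, at 0.26 and 0.21. Wild-type brains 2 and 4 remained, low and high in most choroid plexus probe sets, so a kept sign says little for those. Without wild-type brains 1 and 2, left out because they were lowest, the differences of Ttr, Kl 1423400_at, Folr1, Clic6 and Otx2 were negative, as given in the last section. A p above the threshold does not show that the genotypes were equal, and the 3 and 4 arrays per group limit the precision.

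In muscle, 0 of 18 passed and 0.0644% of all probe sets did. The lowest p was that of Aqp1, which had 11.61, 11.56 and 11.15 in PWS-IC del muscle, against 12.23, 12.15, 11.84 and 12.13 in wild-type muscle. The difference was -0.65 ± 0.14 (limma, unadjusted p = 0.00147, adjusted p = 0.207). Aqp1 was the only member with an unadjusted p under 0.05 in muscle, where 10.3% of all probe sets had one. For the other 17 probe sets the muscle difference lay between -0.27 and 0.19. The interaction, the genotype difference in brain less that in muscle, passed for 0 of 18 members, 0 of which had an unadjusted p under 0.05, and for 0.0644% of all probe sets. It ran from -1.51 to 0.99 over the members, with limma adjusted p between 0.919 and 0.982.

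**Figure D5:**
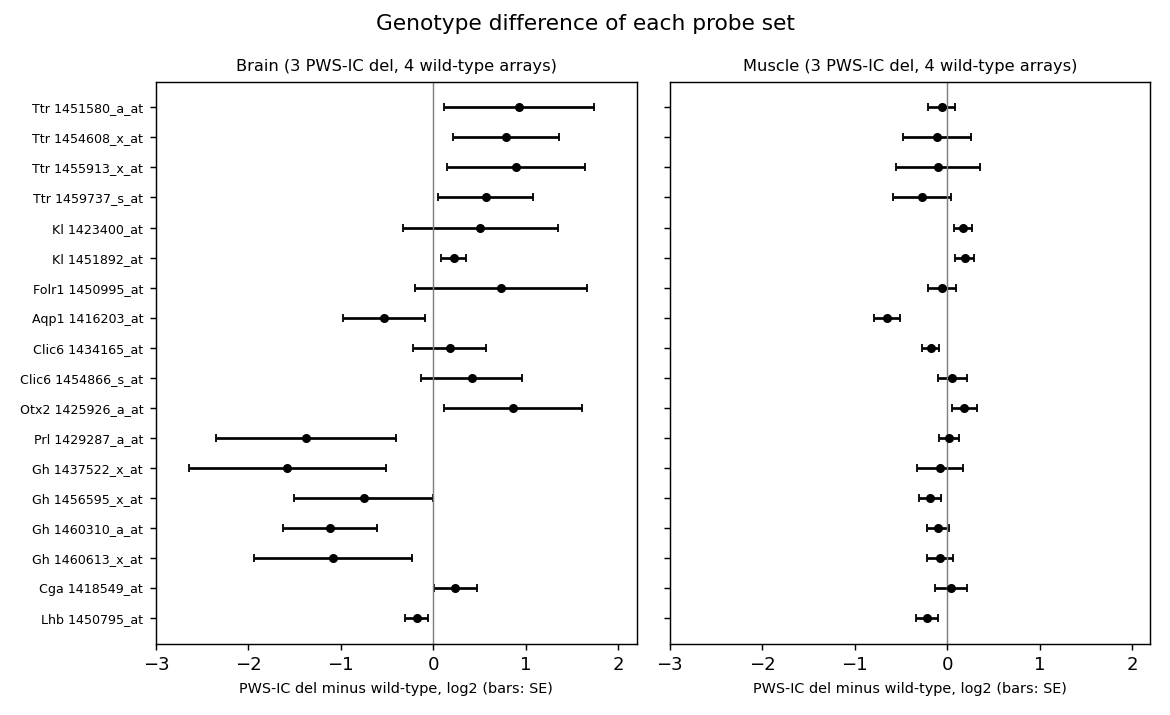
PWS-IC del minus wild-type difference of each of the 18 probe sets in log2 units, in brain (left) and muscle (right), with bars of 1 SE on either side. In brain the choroid plexus points other than Aqp1 lie above 0 and the hormone points other than Cga below it, with wide bars, and in muscle all points except Aqp1 at -0.65 lie near 0.

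Muscle served as background for the brain levels. Between wild-type brain and wild-type muscle, 10 of 18 member probe sets passed, 8 higher and 2 lower in brain, where 68.9% of all probe sets passed, 53.5% higher and 15.4% lower. The 4 Ttr probe sets were higher in brain by 6.06 to 7.23, that of 1459737_s_at by 6.42 ± 0.48 (limma adjusted p = 1.16e-06). Kl 1423400_at was higher by 2.76 ± 0.66 (adjusted p = 0.00389) and Clic6 1454866_s_at by 3.29 ± 0.44 (adjusted p = 8.47e-05). Aqp1 was lower in brain, at -4.87 ± 0.20 (adjusted p = 1.41e-08), and so was Cga, at -0.88 ± 0.22 (adjusted p = 0.00537). Folr1 and Otx2 differed by -0.07 ± 0.69 and 0.21 ± 0.64, with adjusted p of 0.931 and 0.788, since their brains lay on both sides of muscle.

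The smaller tissue differences lay close to the threshold. Clic6 1434165_at, higher in brain by 0.86 ± 0.30 (limma adjusted p = 0.0258), had an adjusted p of 0.0674 without wild-type brain 3, 0.0602 without wild-type muscle 1 and 0.051 without wild-type muscle 3. Gh 1460310_a_at, higher by 1.11 ± 0.43 (adjusted p = 0.0419), had 0.0507 without wild-type brain 4 and 0.0695 to 0.0832 without any 1 of the 4 muscle arrays, where the difference stayed between 1.08 and 1.13. Without wild-type brain 3 its difference was smaller, at 0.59, and its adjusted p lower, at 0.00823. Prl differed by 1.92 ± 0.85 (adjusted p = 0.0664) with all arrays, and by 0.86 (adjusted p = 0.00019) without wild-type brain 3. In all, 8 of 18 member probe sets had all 7 brains above all 7 muscle arrays, those of Ttr, Kl 1423400_at, both of Clic6 and Prl, against 42.2% of all probe sets. Aqp1 was the single member with all brains below muscle, which held for 11.7% of all probe sets. The median brain minus muscle difference over all probe sets was 0.43 in wild-type arrays. By rank within an array, Clic6 1434165_at and Prl did not separate the tissues. For Clic6 1434165_at, 20995 probe sets were brighter in wild-type brain 2, against 17941 in PWS-IC del muscle 3. For Prl, 35610 were brighter in PWS-IC del brain 1, against 34961 in PWS-IC del muscle 3. The part of scaling between tissues was not tested.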

How the data were processed

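The 14 arrays, 3 PWS-IC del and 4 wild-type per tissue, were grouped by their titles. The table deposited by the authors holds linear intensity, 1 value per probe set and array, made with PLIER and the Affymetrix Expression Console per the submitters' processing notes; how background was corrected and arrays were scaled is not stated there. Brain arrays had median intensities of 142 to 170.1 and muscle arrays 88.7 to 96.4, so levels set across tissues carry any difference in scaling. Of 45101 probe sets, 64 controls were left out; symbols came from the platform annotation, which gave 1 symbol to 34958 probe sets and several to 932.

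Values were taken as log2(intensity + 16) and fitted in R 4.3.3 with limma 3.58.1 (lmFit, eBayes), over all 45037 probe sets with no filter, with Benjamini-Hochberg adjustment and a threshold of 0.05. Brain and muscle were fitted alone for genotype, wild-type arrays for tissue, and all 14 arrays for the interaction. Probe sets are not replicates, and those of 1 gene share its transcripts. A list gene was represented by its brightest probe set on average over the 14 arrays.

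Members and the 17 gene lists (191 genes, 169 with a probe set) were chosen with earlier results of these data known. Genes named are the members, up to 4 genes per list with the largest brain difference, and the 5 nearest to Ttr and to Prl; others are marked. Fits were tested on simulated data. Alternatives covered pseudocounts of 1 and 64, quantile normalization, median centring, a filter at the 0.25 quantile, 1 probe set per gene, an intensity trend, array weights, a threshold of 0.1, a joint fit, a replicate block and left-out arrays.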

Additional observations from a re-analysis of the deposited data

Results flagged for a closer look

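In groups of 4 arrays, a highest or lowest array was singled out when its gap to the nearest array was a larger share of the group's range than Dixon's critical value. Of 36 groups looked at, 2 were singled out, and chance alone singles out about 1 in 20. Prl in wild-type brain stood out at 10.45 in wild-type brain 3, with a gap of 0.93 of the range. Aqp1 in wild-type brain stood out at 7.85 in wild-type brain 4, with a gap of 0.938 of a narrow range, since the other 3 wild-type brains lay between 6.97 and 7.02.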

How the results depend on the processing

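Member calls in the genotype comparisons and the interaction stayed at 0 under every alternative run, leaving out each array included, and those between wild-type brain and muscle at 8 to 12, except 4 with 1 probe set per gene and the filter, where 8 members were in the fit. Quantile normalization and median centring were done within each tissue. They left the offset between tissues as it was, so neither could test scaling between brain and muscle. Among brain genotype differences, that of Kl 1423400_at was -0.053 with array weights; without wild-type brains 1 and 2, which were left out because earlier results showed them lowest in these genes, so that the differences had to fall, those of Ttr were -0.51, -0.27, -0.47 and -0.36, Kl -0.89, Folr1 -0.65, Clic6 -0.40 and -0.46, and Otx2 -0.51. Leaving out each array in turn gave -0.0202 to 1.10 for Kl 1423400_at, -0.11 to 0.46 for Clic6 1434165_at and -1.14 to 0.024 for Gh 1456595_x_at. The brain minus muscle difference of Folr1 was 0.059 with a pseudocount of 64, 0.16 with array weights and 0.71 between PWS-IC del arrays, where Gh had -0.34, -0.21 and -0.66 for 1437522_x_at, 1456595_x_at and 1460613_x_at. Leaving out arrays gave -0.76 to 0.51 for Folr1, -0.33 to 0.67 for Otx2, -0.42 to 0.74 for Gh 1456595_x_at and -0.50 to 0.82 for Gh 1460613_x_at. The cause of the other changes was not tested. Correlations of the deviations of same-numbered samples ran from -0.309 to 0.303 between genotypes and from -0.0027 to 0.168 between tissues. The highest was that of PWS-IC del muscle 2 and wild-type muscle 2. Samples with different numbers were not compared, so whether the numbers mark pairs was not tested. With the replicate number as a block, 0 members passed in the brain, muscle and interaction fits and 11 between wild-type tissues, and over all probe sets 11, 11, 19 and 30233 passed, against 28, 29, 29 and 31047 without it. Calls over all probe sets in brain were 9 with 1 probe set per gene, and in muscle 190 with array weights, 78 with the trend, 57 with a pseudocount of 64, 70 at a threshold of 0.1, 48 with the filter, 16 with 1 probe set per gene and 15 to 22 without an array. For the interaction they were 12 with 1 probe set per gene and 19 with a pseudocount of 1.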
